A study of Mus musculus with 6 samples.

Results

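Integrins are surface receptors built from 1 alpha and 1 beta subunit, and lymphocytes use them to hold on to other cells and to the extracellular matrix. The 10 genes described here encode subunits carried by natural killer (NK) cells and their relatives, chosen by name: Itgae, Itgb7, Itga1, Itga2, Itga4, Itgb1, Itgal, Itgb2, Itgam and Itgax. All 10 were found among the 56953 Ensembl genes of the deposited tables, all 10 passed the filter on low counts, and 15591 genes were tested in all. The list was drawn up with earlier results of these data known, Itgae being among them.

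The alpha subunit decides most of the ligand choice, and each beta subunit serves a family. Integrin beta 7 (Itgb7) pairs with alpha E (Itgae, the CD103 antigen) to bind E-cadherin on epithelium, or with alpha 4 (Itga4) to bind MAdCAM-1 on gut vessels. Integrin beta 1 (Itgb1) pairs with alpha 1 (Itga1, CD49a) and alpha 2 (Itga2, CD49b or DX5), which bind collagens, and with alpha 4, which binds VCAM-1 and fibronectin. Integrin beta 2 (Itgb2) pairs with alpha L (Itgal, forming LFA-1), alpha M (Itgam, CD11b) and alpha X (Itgax, CD11c). CD49b and CD11b are used to mark and stage circulating mouse NK cells, and CD49a and CD103 mark tissue-resident lymphocytes.

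The study cultured NK cells from the spleen of wild-type C57BL/6 mice for 7 days with recombinant human interleukin-2 (1700 U/ml) and 5% CO2, either under normoxia (20% oxygen) or under hypoxia (1% oxygen). There were 3 libraries in each group, described as biological replicates. No genetic change or other treatment is named in the labels for either group, and the age and sex of the mice, and whether a replicate was a mouse, a pool or a culture, were not stated in the sources used. The p-values therefore measure the spread between these libraries, which may in part be technical.

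The libraries held 55104810 to 55794698 estimated counts each. Levels are CPM, the usual unit of counts relative to the library total, scaled by the trimmed mean of M values (TMM), given per library in the order replicate 1, 2 and 3. Differences are log2 ratios of hypoxia to normoxia, with their standard error (SE), and a gene is "called" where its Benjamini-Hochberg p over all tested genes, from the quasi-likelihood test of edgeR, was below 0.05. Of all tested genes 20.9% were called, 11.2% higher and 9.72% lower in hypoxia. In numbers these were 1745 and 1516 genes, which became 2384 and 998 when only library size was used for scaling, 2988 and 3120 in a fit that paired libraries by replicate number (the replicate block), 1160 and 804 when hypoxia replicate 2 was left out, and 1146 and 942 when normoxia replicate 2 was. All 11 NK cell markers were present at 1 CPM or more. Of these, 1 rose in hypoxia (Gzma), 2 fell (Eomes and Klre1) and 8 were not called, against 20.9% of all tested genes called. With the replicate block 2 rose and 6 fell, against 39.2% of all tested genes called. The highest was Gzmb, at 11744 ± 1432 CPM in hypoxia against 11992 ± 697 CPM in normoxia (mean ± SD, n = 3), and it was not called. Transcripts of the T cell receptor complex were present too (summed T cell markers 264 to 316 CPM in hypoxia and 235 to 259 CPM in normoxia), of which mouse NK cells carry some. In bulk libraries, fewer cells of a type and less RNA per cell cannot be told apart.

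RefSeq promoter windows (build GRCm38.p6, 250 bases before and 50 after the start site) were at hand for 7 of the 10 genes, namely Itga1, Itga2, Itga4, Itgam, Itgax, Itgb1 and Itgb7. Itgae, Itgal and Itgb2 had no entry. The 250 bases before the start site are shown for the 3 genes with a window that rose in hypoxia, 5′ to 3′ on the strand of the gene, with matches to the motifs named below in capitals. They lie at chr15:102231936-102232185 on the minus strand (Itgb7), chr7:128062390-128062639 on the plus strand (Itgam) and chr7:128129300-128129549 on the plus strand (Itgax).
Itgb7: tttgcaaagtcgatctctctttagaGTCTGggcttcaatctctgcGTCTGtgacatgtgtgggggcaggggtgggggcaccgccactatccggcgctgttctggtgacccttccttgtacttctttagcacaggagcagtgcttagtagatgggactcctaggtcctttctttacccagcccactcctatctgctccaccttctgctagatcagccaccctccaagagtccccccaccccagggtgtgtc
Itgam: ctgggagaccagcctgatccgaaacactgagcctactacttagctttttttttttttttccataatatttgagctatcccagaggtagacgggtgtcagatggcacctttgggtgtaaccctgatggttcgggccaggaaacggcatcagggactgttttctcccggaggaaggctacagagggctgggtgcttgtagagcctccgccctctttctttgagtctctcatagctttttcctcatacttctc
Itgax: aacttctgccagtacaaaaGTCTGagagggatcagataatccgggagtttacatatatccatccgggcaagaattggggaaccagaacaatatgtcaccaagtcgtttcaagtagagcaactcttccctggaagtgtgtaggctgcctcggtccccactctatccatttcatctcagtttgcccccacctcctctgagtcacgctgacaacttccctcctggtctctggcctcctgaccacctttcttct
The motifs were ACGTG (a form of the core bound by hypoxia-inducible factors), CAGAC (the core bound by SMAD proteins) and TGTGGT (the core bound by RUNX proteins). They were searched as exact matches on both strands of the whole 300-base window. Other forms of these cores, such as GCGTG for hypoxia-inducible factors, were not searched. No 2 matches overlapped. ACGTG was in 0 of the 7 windows, against 19.6% of 32851 windows of all genes. CAGAC was in 7 of 7, against 49.6%, and TGTGGT in 2 of 7 (Itga4 and Itgax), against 16.8%. The CAGAC match of Itgam and the TGTGGT match of Itgax lay after the start site, outside the stretch shown. A match is a description of the letters and does not show that a factor binds.

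Of the 10 subunit genes, 4 rose in hypoxia (Itgae, Itgam, Itgax and Itgb7), 1 fell (Itgal) and 5 were not called (Itga1, Itga2, Itga4, Itgb1 and Itgb2). That is 5 of 10 called against the 20.9% of all tested genes, in a list that was put together with the rise of Itgae known. The median log2 fold change of the 10 was 0.16, against -0.0052 for all tested genes. With the replicate block 5 rose and 1 fell, the added gene being Itga1, where 39.2% of all tested genes were called. The 3 libraries of a group did not overlap with those of the other for 7 of the 10 genes, against 38.3% of all tested genes.

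**Figure D1:**
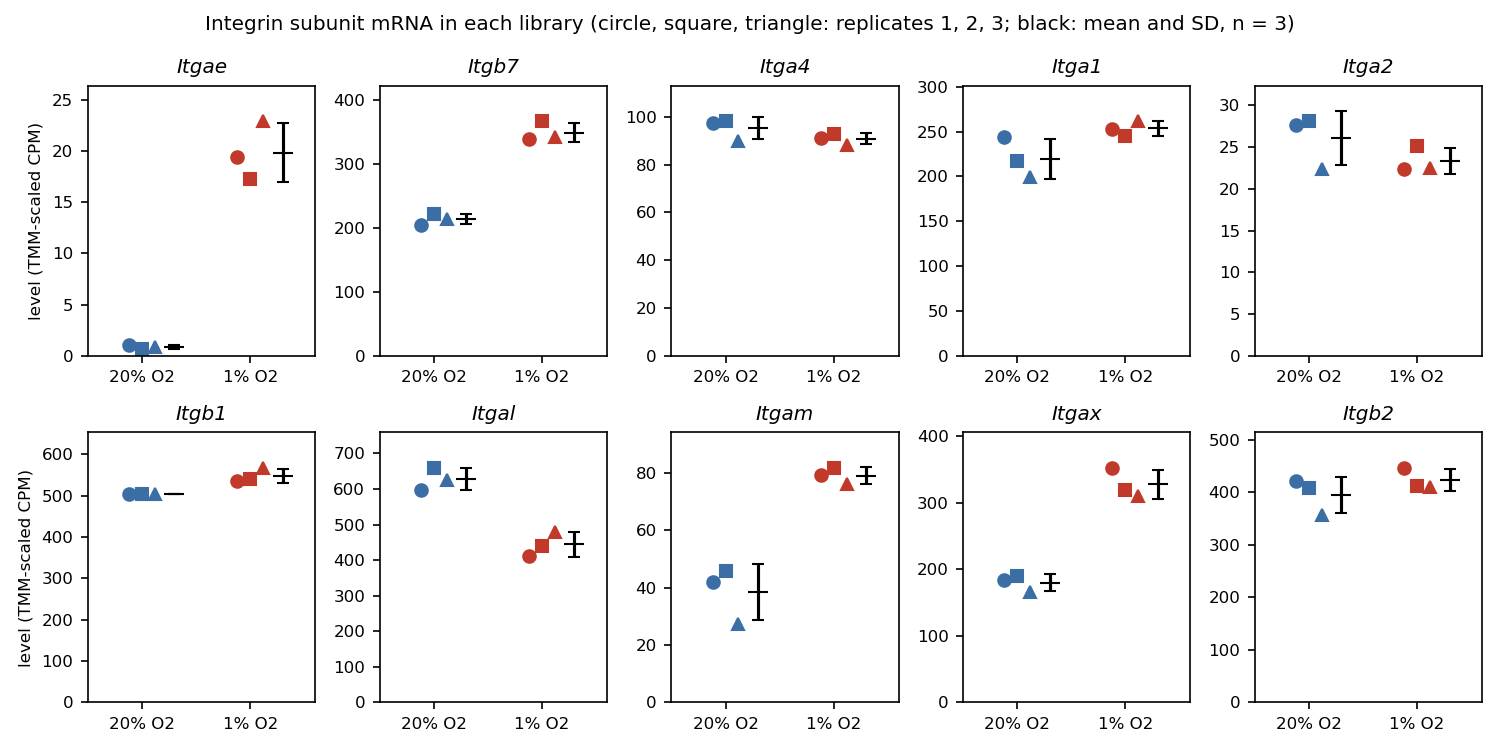
Level of each of the 10 integrin subunit genes (TMM-scaled CPM, linear axes from 0) in the 3 normoxia (blue) and 3 hypoxia (red) libraries, with the mean and SD in black. Itgae stood near 1 CPM in normoxia and between 17.2 and 22.9 CPM in hypoxia, Itgal was lower in all 3 hypoxia libraries, and Itga2, Itga4 and Itgb2 overlapped between groups.

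Both subunits of the CD103 receptor rose, the alpha subunit far more than the beta subunit. Itgae stood at 19.4, 17.2 and 22.9 CPM in the hypoxia libraries and at 1.09, 0.688 and 0.841 CPM in normoxia. The lowest hypoxia library lay far above the highest normoxia library. The rise was 22.8-fold (log2 fold change 4.51, SE 0.18, edgeR adjusted p = 3.2e-06), which ranked 7 among the 15591 tested genes ordered by fold change. Itgb7 stood at 339, 366 and 341 CPM in hypoxia and at 205, 222 and 214 CPM in normoxia, so that its groups lay well apart. It rose 1.63-fold (0.71, SE 0.07, edgeR adjusted p = 0.00021). Itga4, the other alpha partner of beta 7, stood at 91.3, 92.7 and 88.2 CPM in hypoxia and at 97.5, 98.2 and 90.1 CPM in normoxia. Its groups overlapped, and it was not called (-0.07, SE 0.07, edgeR adjusted p = 0.52, and 0.013 on the log2 scale where only library size was used for scaling).

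Haspin, which encodes a kinase of mitotic chromatin, lies inside Itgae on the opposite strand, so their counts could be mixed where transcripts of both share sequence. The library kit kept strand, but how the counting used it was not stated in the sources used. Haspin stood at 39.3, 38.2 and 38.2 CPM in hypoxia and at 28.1, 30.7 and 30.9 CPM in normoxia (log2 fold change 0.37, SE 0.07, edgeR adjusted p = 0.0061). The part of Haspin reads in the count of Itgae was not tested, nor was whether transcripts of both genes share sequence.

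Levels of different genes can be compared only per transcript length, and the length of these genes depends on which annotated transcript is taken. With the median transcript length, Itgae stood at 0.227 ± 0.0522 CPM per kilobase in normoxia (mean ± SD, n = 3), the lowest of the 10, and at 5.17 ± 0.747 in hypoxia, next to Itga2 at 6.15 ± 0.414. With the longest transcript these levels were 0.227 ± 0.0521, 5.16 ± 0.745 and 3.28 ± 0.221 CPM per kilobase. Itga2 lay above Itgae with one length and below it with the other, so their order in hypoxia was not settled. At the top of the order in hypoxia stood Itgb7 (777 ± 34.1), Itgax (373 ± 25.1) and Itgb1 (303 ± 9.53 CPM per kilobase) with the median length, and Itgb1 (144 ± 4.52), Itgb2 (142 ± 7.02) and Itgb7 (130 ± 5.71) with the longest transcript. The levels of Itgb1 and Itgb2 by the longest transcript did not differ beyond their spread. The median annotated transcript of Itgb7 had 449 bases and the longest 2683, so its level per length depended strongly on this choice.

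The balance of the alpha partners of beta 7 was taken as Itgae in percent of the sum of Itgae and Itga4 per length. It was 11.4%, 10.1% and 13.5% in hypoxia and 0.667%, 0.421% and 0.560% in normoxia with the median length. With the longest transcript it was 35.1%, 32.1% and 39.7% against 2.75%, 1.75% and 2.32%. The groups did not overlap with either length, while the size of the share depended on the length taken. Itga4 also pairs with beta 1, and mRNA does not show how much protein of each pair reached the surface.

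A total of 7 such shares were tested by an exact two-sided permutation test over the libraries, where 3 against 3 cannot give a p under 0.1. The share of Itgae had the smallest possible p (exact p = 0.1, 0.117 after Benjamini-Hochberg adjustment over the 7 shares), and so had 5 of the other 6 shares.

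The beta 2 family split, with alpha M and alpha X higher and alpha L lower in hypoxia. Itgam, which encodes the alpha subunit of the complement receptor Mac-1, stood at 79.2, 81.8 and 76.1 CPM in hypoxia and at 42.1, 45.7 and 27.3 CPM in normoxia. Normoxia replicate 3 was the lowest library, and all 3 hypoxia libraries lay above all normoxia libraries. Itgam rose 2.06-fold (log2 fold change 1.04, SE 0.16, edgeR adjusted p = 0.0016). Itgax stood at 353, 320 and 311 CPM in hypoxia and at 185, 189 and 166 CPM in normoxia, again without overlap. It rose 1.82-fold (0.87, SE 0.09, edgeR adjusted p = 0.00015).

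Itgal, which encodes the alpha subunit of LFA-1, the receptor for ICAM-1 at the contact with target cells, stood at 411, 441 and 480 CPM in hypoxia and at 598, 660 and 625 CPM in normoxia. All 3 hypoxia libraries lay below all 3 normoxia libraries. The level in normoxia was 1.41-fold that in hypoxia (log2 fold change -0.50, SE 0.08, edgeR adjusted p = 0.0028). Itgb2, the beta subunit that all of these share, stood at 447, 412 and 410 CPM in hypoxia and at 421, 409 and 357 CPM in normoxia. Its groups overlapped, and it was not called (0.10, SE 0.09, edgeR adjusted p = 0.49).

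Among the alpha partners of beta 2 (Itgal, Itgam, Itgax and Itgad, per median transcript length), the share of Itgal was 18.6%, 21.2% and 23.2% in hypoxia and 38.9%, 40.6% and 42.9% in normoxia. That of Itgax was 76.8%, 73.8% and 72.1% against 57.6%, 55.9% and 54.6%, and that of Itgam 4.32%, 4.72% and 4.42% against 3.29%, 3.38% and 2.25%. None of these 3 shares overlapped between groups (exact p = 0.1 for each). With the longest transcript Itgal made up 46.1% ± 3.29 in hypoxia and 69.3% ± 2.12 in normoxia, and Itgax 44.0% ± 3.12 and 25.6% ± 1.19 (SD, n = 3). The largest alpha share in hypoxia was thus Itgax with the median length. With the longest transcript Itgal and Itgax lay within their spread of each other. With no division by length Itgal had the larger share in hypoxia, at 51.8% ± 3.29 against 38.3% ± 3.03 for Itgax. The median annotated transcript of Itgax had 879.5 bases and the longest 4046, so the size of these shares depended strongly on the length taken.

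**Figure D2:**
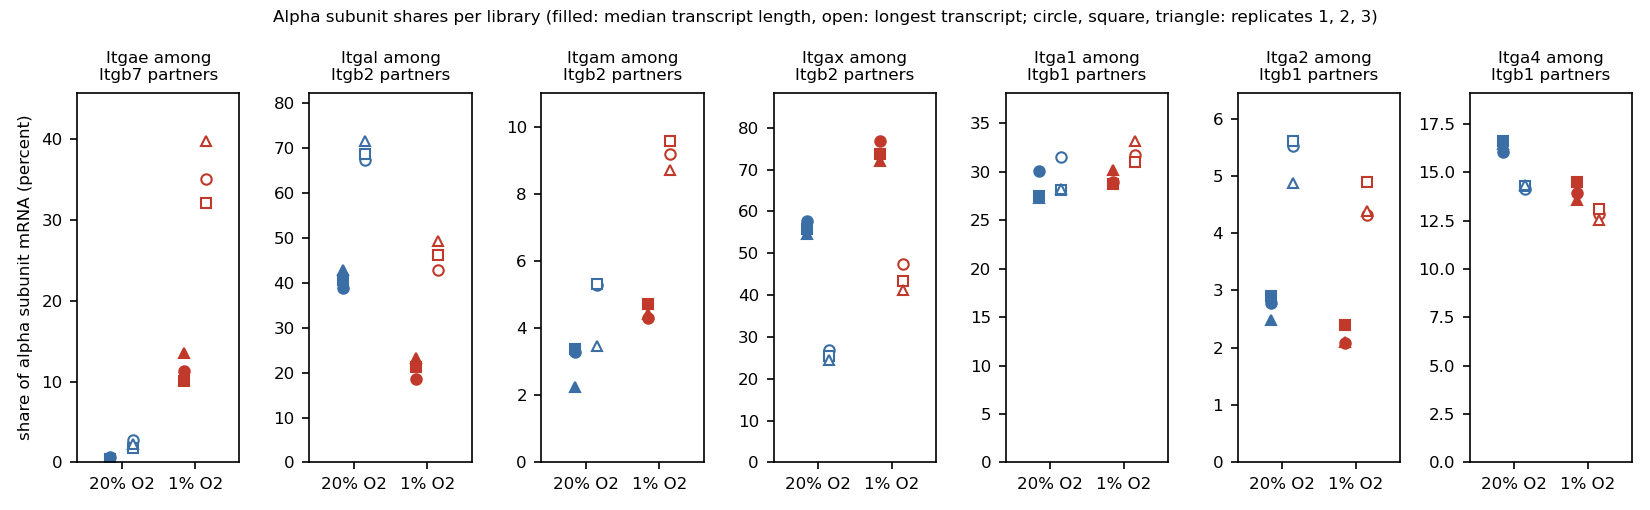
Share of each alpha subunit (percent, linear axes from 0) in the summed mRNA per length of the alpha subunits that pair with the same beta subunit, per library, in normoxia (blue) and hypoxia (red), with the median (filled) or longest (open) transcript length. Itgae rose from under 1% to between 10.1% and 13.5% with the median length, and Itgal and Itgax moved in opposite directions with either length.

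Itgam and Itgax are also carried by macrophages, dendritic cells and neutrophils, so markers of these cells stand beside their rise. Among all tested genes 20.9% were called. Of 8 macrophage and monocyte markers, 4 were tested, of which 2 rose (Cd68 and Lyz2) and 1 fell (Cd14), and 5 stayed under 1 CPM in every library (Adgre1, Lyz2, Mertk, C1qa and C1qb). Lyz2, which encodes lysozyme, had 11, 22 and 20 counts in hypoxia and 0 in each normoxia library (edgeR adjusted p = 0.0019). The summed level of the 8 was 50.8 to 83.6 CPM in hypoxia and 15.5 to 29.2 CPM in normoxia. Most of it was Cd68, a lysosomal membrane protein that other leukocytes also carry, at 61.9 ± 16.5 and 16.4 ± 6.15 CPM, and Cd14, a monocyte coreceptor for bacterial lipid, was lower in hypoxia (1.47 ± 0.303 and 3.88 ± 0.637 CPM). The 7 neutrophil markers all stayed under 1 CPM in every library, with summed levels of 0.823 to 2.13 CPM in hypoxia and 0.256 to 0.343 CPM in normoxia. Both tested ones rose, S100a9 from 1, 0 and 0 counts in normoxia to 13, 40 and 21 in hypoxia (edgeR adjusted p = 0.0016), and S100a8 from 1, 0 and 0 to 10, 38 and 24 (edgeR adjusted p = 0.0022). These genes encode calprotectin, a protein of neutrophils and monocytes.

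Some dendritic cells carry CD103 and CD11c. Of 8 dendritic cell markers, Clec9a and Cd209a were at 0 in all 6 libraries, and the summed level was lower in hypoxia (4.78 to 5.43 CPM) than in normoxia (8.68 to 8.87 CPM). The highest of them was Zbtb46, at 3.74 ± 0.202 and 6.15 ± 0.151 CPM. Of the 4 tested markers 3 fell (Zbtb46, Batf3 and Wdfy4) and 1 rose (Xcr1), against 20.9% of all tested genes called. Batf3, a factor of the CD103-bearing dendritic cells, fell from 1.02 ± 0.214 to 0.340 ± 0.0541 CPM. Wdfy4 fell from 1.22 ± 0.0778 to 0.304 ± 0.0629 CPM. Xcr1, a receptor of the CD103-bearing cells, rose from 0.247 ± 0.0557 to 0.580 ± 0.165 CPM.

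Some T cells carry CD103 as well. Of the 11 T cell markers 3 rose (Cd3d, Cd3g and Cd4) and 0 fell, against 20.9% of all tested genes called. Under the replicate block Cd8b1 rose as well, which made 4, and Trbc2 fell (edgeR adjusted p = 0.0083). The block called 39.2% of all tested genes. The highest was Trbc2, at 104 ± 5.55 CPM in hypoxia against 122 ± 7.73 CPM in normoxia. Cd3d, a chain of the T cell receptor complex, averaged 42.2 ± 5.06 CPM in hypoxia against 20.1 ± 1.08 CPM in normoxia, and Cd3g, another chain, 103 ± 10.9 and 56.2 ± 6.80 CPM. Cd3e stood at 11.3 ± 2.67 and 11.7 ± 1.19 CPM and Cd8a at 14.0 ± 4.44 and 12.7 ± 1.88 CPM, both uncalled, and Foxp3, which defines regulatory T cells, at most at 0.0571 CPM in any library. Basophil and mast cell markers summed to 76.2 to 89.8 CPM in hypoxia and 19.1 to 27.3 CPM in normoxia, nearly all of it Mcpt8. Both tested ones rose, Mcpt8 from 21.1 ± 4.10 to 79.7 ± 6.61 CPM and Cpa3, a mast cell protease gene, from 0.704 ± 0.498 to 1.96 ± 0.470 CPM (edgeR adjusted p = 0.027), while Fcer1a and Ms4a2, which define these cells, had at most 1 count per library. B cell, ILC2 and ILC3, and platelet markers summed to at most 1.19, 29.7 and 0.596 CPM in any library, the highest genes being Cd79b, Gata3 and Ppbp. The part of other cells in the changes of Itgae, Itgam and Itgax was not tested beyond these levels.

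The collagen receptors and beta 1 were not called. Itga1 stood at 253, 246 and 262 CPM in hypoxia and at 244, 217 and 199 CPM in normoxia. Its groups did not overlap, with normoxia replicate 1 just below the lowest hypoxia library, and the log2 fold change was 0.20 (SE 0.09, edgeR adjusted p = 0.13). It passed with the replicate block (edgeR adjusted p = 0.022), where only library size was used for scaling (0.025), without normoxia replicate 1 (0.027) and without the replicate 1 libraries of both groups (0.029). Pelo, which encodes a factor that rescues stalled ribosomes and lies within Itga1 on the same strand, stood at 24.0 ± 1.58 and 20.4 ± 3.81 CPM and was not called.

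Itga2, which encodes the DX5 antigen, stood at 22.4, 25.1 and 22.4 CPM in hypoxia and at 27.7, 28.1 and 22.3 CPM in normoxia. Its groups overlapped because normoxia replicate 3 was as low as the hypoxia libraries (log2 fold change -0.16, SE 0.10, edgeR adjusted p = 0.32). Itgb1 stood at 536, 540 and 567 CPM in hypoxia and at 505, 504 and 504 CPM in normoxia. Its groups did not overlap, but the difference was small (0.12, SE 0.07) and not called (edgeR adjusted p = 0.27, or 0.080 under the replicate block).

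Among the 12 alpha subunits that can pair with beta 1, several of which also have other partners, the share of Itga4 per median transcript length was 13.9%, 14.5% and 13.6% in hypoxia and 16.1%, 16.6% and 16.5% in normoxia, without overlap (exact p = 0.1). That of Itga2 was 2.08%, 2.39% and 2.11% against 2.78%, 2.90% and 2.49% (exact p = 0.1, and 0.2 with the longest transcript). That of Itga1 was 29.0%, 28.8% and 30.2% against 30.1%, 27.5% and 27.3%, with overlapping groups (exact p = 0.3, 0.3 after adjustment over the 7 shares).

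The other 17 integrin subunit genes moved in both directions too. Of these, 12 passed the filter, 4 rose (Itgb4, Itga7, Itgad and Itgav), 2 fell (Itga10 and Itga5) and 6 were not called. Among all tested genes 20.9% were called. The list's median log2 fold change was -0.07, and 0.014 without normoxia replicate 2. Itgb4, the beta 4 subunit of the laminin receptor of epithelium, stood at 3.61, 2.42 and 2.62 CPM in hypoxia and at 0.952, 0.851 and 0.823 CPM in normoxia (log2 fold change 1.72, SE 0.20, edgeR adjusted p = 0.00041). The alpha partner of beta 4, Itga6, stood at 17.8 ± 1.56 and 17.8 ± 0.618 CPM (-0.0029, SE 0.09, with the opposite sign in 5 of 14 alternative settings). The laminin receptor subunit Itga7 stood at 2.21, 4.14 and 1.89 CPM in hypoxia, with replicate 2 the highest, and at 1.01, 0.833 and 0.676 CPM in normoxia (1.71, SE 0.31, edgeR adjusted p = 0.0042).

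Itgad, a further alpha partner of beta 2 and the neighbour of Itgax, stood at 4.99, 5.94 and 5.27 CPM in hypoxia and at 2.78, 2.95 and 2.91 CPM in normoxia. Its log2 fold change was 0.91 (SE 0.13, edgeR adjusted p = 0.0010), so Itgam, Itgax and Itgad, neighbouring genes of related sequence, were all higher. Estimated counts could be shared between related genes, and how much was not tested.

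Itgav, the alpha subunit of the vitronectin receptors, rose from 106 ± 4.20 to 133 ± 3.54 CPM (0.33, SE 0.07, edgeR adjusted p = 0.0079). Itgb3, a partner of alpha V, averaged 260 ± 7.36 CPM in hypoxia against 284 ± 28.0 CPM in normoxia and was not called. The fibronectin receptor subunit Itga5 fell from 55.3 ± 5.16 to 45.5 ± 1.87 CPM (-0.28, SE 0.08, edgeR adjusted p = 0.037). Itga10, a collagen receptor subunit, fell from 2.15 ± 0.461 to 1.29 ± 0.0631 CPM (-0.73, SE 0.19, edgeR adjusted p = 0.025).

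When libraries were left out the count of 2 lower subunits was not stable, although both genes kept their direction in all 14 alternative settings (log2 fold changes of -0.34 to -0.20 for Itga5 and -0.83 to -0.54 for Itga10). It was 0 without hypoxia replicate 1, 2 or 3 or normoxia replicate 2, and 1 without normoxia replicate 3, with Itga5 reaching an edgeR adjusted p of 0.14 and Itga10 of 0.10 without normoxia replicate 2. It was also 1 with scaling by library size and with the stricter filter. Itga2b, Itga3, Itga9 and Itgb5 were not called and differed on the log2 scale by 0.35 (SE 0.21), -0.14 (SE 0.11), -0.18 (SE 0.37) and -0.51 (SE 0.24). Itga8, Itga11, Itgb6, Itgb8 and Itgb2l did not pass the filter, with at most 0.0952 CPM in any library.

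**Figure D3:**
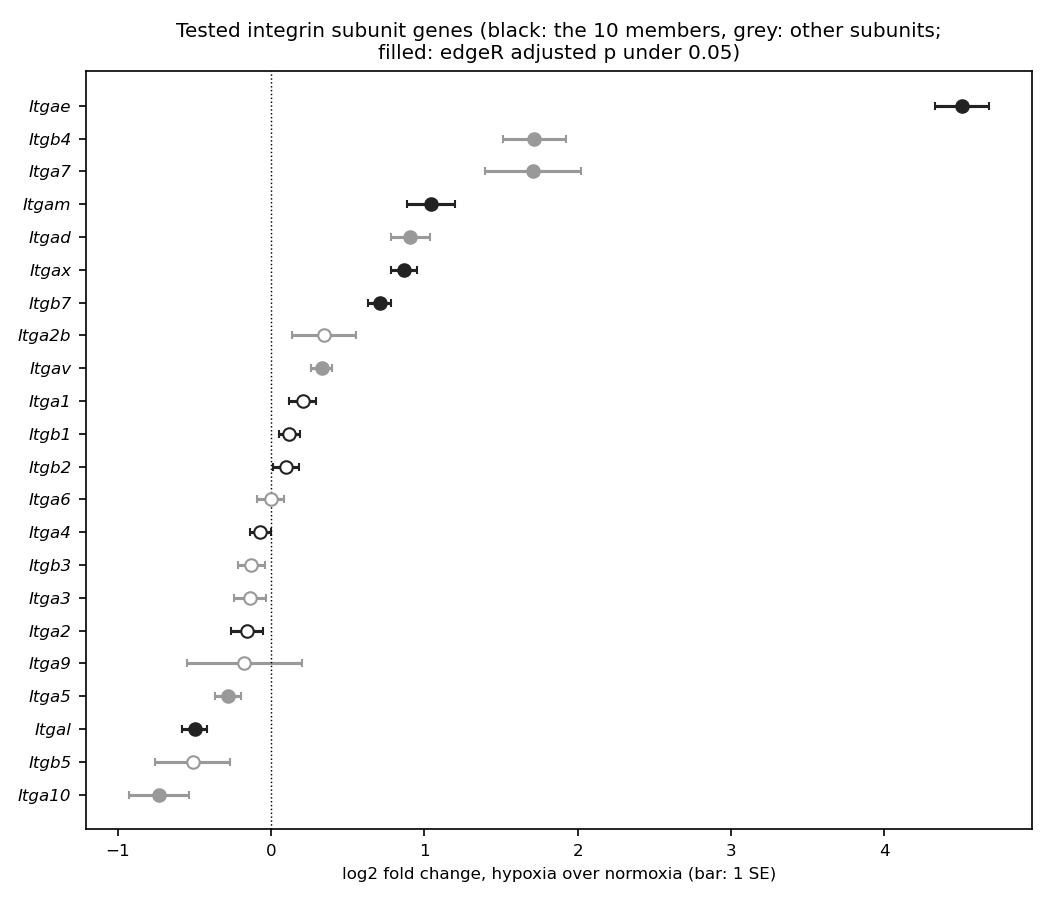
Log2 fold change, hypoxia over normoxia, with 1 SE for the 22 tested integrin subunit genes (black, the 10 members; grey, the other 12; filled, called). Itgae stands apart at 4.51, with the next values at 1.72 (Itgb4) and 1.71 (Itga7), and the lowest value is -0.73 (Itga10).

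Ligands of these integrins were measured in the same cultures. Of 22 ligand genes 13 were tested, 2 rose (Cdh1 and Jam2) and 2 fell (Thy1 and Icam1). The share called among all tested genes was 20.9%. The list's median log2 fold change was 0.37. Cdh1, which encodes E-cadherin, the ligand of CD103, stood at 276, 255 and 261 CPM in hypoxia and at 204, 175 and 151 CPM in normoxia. All hypoxia libraries lay above all normoxia libraries (0.58, SE 0.11, edgeR adjusted p = 0.0047). Icam1, which encodes the main ligand of LFA-1, stood at 59.0, 66.1 and 66.3 CPM in hypoxia and at 85.3, 89.5 and 86.1 CPM in normoxia. It was lower, as Itgal was (-0.45, SE 0.07, edgeR adjusted p = 0.0022).

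Thy1, a surface glycoprotein of lymphocytes that beta 2 and beta 3 integrins can bind, fell from 713 ± 46.9 to 476 ± 28.9 CPM (-0.58, SE 0.08, edgeR adjusted p = 0.0012). Vcam1 and Madcam1, the ligands of the alpha 4 integrins, reached at most 0.308 and 0.110 CPM in any library and were not tested. With the replicate block 4 ligand genes rose and 3 fell, against 39.2% of all tested genes called. Those that rose numbered 1 without normoxia replicate 2 and 4 without normoxia replicate 1 or both replicate 1 libraries.

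Genes that switch integrins on from inside the cell were followed next. Of 21 listed genes 19 were tested, 1 rose (Rasgrp2), 1 fell (Fyb) and 17 were not called. The list's median log2 fold change was -0.02, and 0.057 where only library size was used for scaling. The 2 called of 19 stand against 20.9% of all tested genes. Rasgrp2, the exchange factor that loads the GTPase Rap1 before integrin activation, stood at 19.6, 23.8 and 17.0 CPM in hypoxia and at 8.11, 9.29 and 8.21 CPM in normoxia (1.24, SE 0.13, edgeR adjusted p = 0.00019). Fyb, which encodes the adaptor ADAP, stood at 152 ± 1.37 and 180 ± 6.41 CPM (-0.24, SE 0.07, edgeR adjusted p = 0.032). Fyb missed the threshold without hypoxia replicate 1, 2 or 3 or normoxia replicate 2 or 3 (edgeR adjusted p = 0.054 to 0.14). Talin (Tln1) and kindlin-3 (Fermt3), which bind the beta tails, had log2 fold changes of -0.04 (SE 0.10) and -0.18 (SE 0.08). With the replicate block 3 of these genes rose and 6 fell, Fermt3 among them (edgeR adjusted p = 0.012), 9 of 19 in all where the block called 39.2% of all tested genes, and without both replicate 1 libraries 3 rose.

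Of 24 genes of the adhesion complex and its signalling, 21 were tested, 6 rose and 3 fell, against 20.9% of all tested genes called. The list's median log2 fold change was 0.04, and 0.16 without normoxia replicate 1. With the replicate block 8 rose and 3 fell, against 39.2% of all tested genes called. Actn1, which encodes an actin cross-linker of adhesion sites, stood at 9.90, 9.75 and 11.3 CPM in hypoxia and at 3.88, 4.47 and 4.15 CPM in normoxia (1.31, SE 0.11, edgeR adjusted p = 6.6e-05). Tns3, which encodes the adaptor tensin 3, stood at 3.85, 3.29 and 3.31 CPM in hypoxia and at 7.90, 9.02 and 6.71 CPM in normoxia (-1.18, SE 0.14, edgeR adjusted p = 0.00044). The related actinin Actn4 was at 347 ± 12.3 and 350 ± 39.7 CPM. Ptk2, Ptk2b, Nedd9, Tns1 and Cd151 also rose and Pxn and Cd47 also fell. The number that rose was 3 without hypoxia replicate 1 or 2 or normoxia replicate 3, and the number that fell was 1 without hypoxia replicate 2 or 3.

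TGF-beta is the cytokine best known to raise CD103 in lymphocytes, through SMAD proteins. Of 17 genes of this pathway 15 were tested, 4 rose (Tgfb3, Ski, Tgfbr3 and Tgfbr1) and 1 fell (Nrros). The share called among all tested genes was 20.9%. The list's median log2 fold change was 0.20, and 0.11 without hypoxia replicate 1 and 0.090 without the replicate 1 libraries of both groups. Tgfb3, a TGF-beta ligand, stood at 55.8, 47.9 and 46.9 CPM in hypoxia and between 14.1 and 20.4 CPM in the 3 normoxia libraries (1.61, SE 0.14, edgeR adjusted p = 6.1e-05). Tgfb1 averaged 285 ± 10.8 CPM in hypoxia against 302 ± 1.09 CPM in normoxia and was not called (-0.09, SE 0.07, edgeR adjusted p = 0.44). Ski, which encodes a repressor of SMAD transcription, stood at 98.3, 93.3 and 90.8 CPM in hypoxia and at 60.1, 61.5 and 62.8 CPM in normoxia (0.61, SE 0.07, edgeR adjusted p = 0.00024).

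The signalling receptor Tgfbr1 rose from 65.6 ± 2.82 to 80.8 ± 4.49 CPM (0.30, SE 0.07, edgeR adjusted p = 0.015). It missed the threshold without hypoxia replicate 1 (edgeR adjusted p = 0.058) and without normoxia replicate 2 (0.069) or 3 (0.050). Tgfbr2 stood at 278 ± 1.5 and 276 ± 27.6 CPM (0.01, SE 0.09, edgeR adjusted p = 0.93, and -0.053 without normoxia replicate 3). Smad3, a transducer of the signal, differed by 0.20 on the log2 scale (SE 0.08, edgeR adjusted p = 0.10), and Smad7, a feedback inhibitor that the pathway itself induces, by 0.23 (SE 0.11, edgeR adjusted p = 0.16). The replicate block made both pass (edgeR adjusted p = 0.0085 for Smad3 and 0.046 for Smad7). With the block 7 genes of the pathway rose and 2 fell, against 39.2% of all tested genes called. Without hypoxia replicate 2 or normoxia replicate 3, 2 fell.

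Of 14 genes of tissue residency and egress, all tested, 7 rose and 1 fell, against 20.9% of all tested genes called. The list's median log2 fold change was 0.48. Those that rose included genes of both fates. Zfp683, which encodes the residency factor Hobit, stood at 3.75, 3.91 and 3.42 CPM in hypoxia and at 0.895, 0.869 and 0.859 CPM in normoxia (2.08, SE 0.16, edgeR adjusted p = 3.0e-05). Klf2, which encodes a factor that keeps lymphocytes in circulation, stood at 19.9, 22.1 and 19.1 CPM in hypoxia and at 10.3, 9.78 and 9.52 CPM in normoxia (1.05, SE 0.09, edgeR adjusted p = 5.6e-05). Ahr and Cxcr6 also rose, as did the egress receptors S1pr1, S1pr5 and Ccr7, and Eomes fell. Runx3, which encodes a factor known to act on Itgae in T cells, stood at 151 ± 15.1 and 178 ± 23.0 CPM (-0.24, SE 0.11, edgeR adjusted p = 0.15, or 0.0028 under the replicate block). With the block 9 of the list rose and 3 fell, against 39.2% of all tested genes called. Without normoxia replicate 3, 2 fell.

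**Figure D4:**
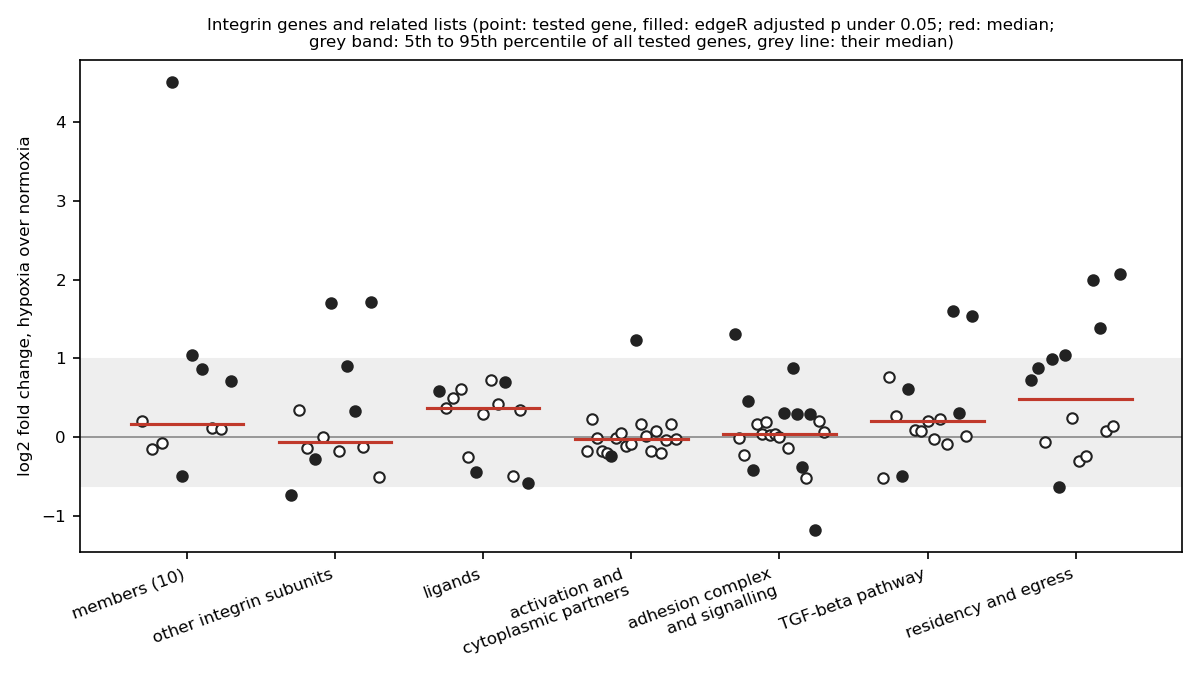
Log2 fold change, hypoxia over normoxia, of each tested gene in the 10 integrin members and in 6 related lists (filled, called), with the median of each list in red. The grey band holds the middle of all tested genes, from the 5th percentile at -0.62 to the 95th at 0.99, and its line marks their median.

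The genes with the pattern most like that of Itgae were sought among 10823 named genes with a mean of at least 1 CPM, as the smallest root mean square distance of centred log2 CPM over the 6 libraries. These were Eps8l3 (distance 0.76), Gapt (0.81) and Raet1d (0.81 log2 units). Eps8l3 stood at 3.34 ± 0.670 CPM in hypoxia and 0.395 ± 0.0843 in normoxia, Gapt at 4.75 ± 0.273 and 0.617 ± 0.128, and Raet1d at 2.49 ± 0.0659 and 0.302 ± 0.0564 CPM. Their log2 fold changes were 3.08, 2.94 and 3.04, below the 4.51 of Itgae. Likeness here means only the smallest distance over the 6 values, and none of these genes rose by as much as Itgae.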

How the data were processed

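Per the labels' protocols, column-purified RNA went into strand-specific mRNA libraries sequenced on DNBSEQ. Trim Galore 0.6.4, kallisto 0.4.6, edgeR 3.17 and the build GRCm39 are named in the submitters' processing notes, while the annotation used and how transcripts were summed to genes were not stated in the sources used. The authors deposited an estimated count per Ensembl gene (69.5% of values whole within 1e-06) and a CPM table on the log2 scale, which was used only as a check. Symbols and transcript lengths came from GENCODE M21, an earlier build, which names 52029 of the 56953 genes. Rows without a symbol stayed in the library sizes and the tests.

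Counts were rounded, filtered with filterByExpr (minimum count 10, minimum total 15), scaled with TMM and tested with edgeR 4.0.16 without covariates. The SE was taken as |log2 fold change| divided by the root of F. The fit was tested on simulated data, where the share of false calls lay above the nominal level. The tolerance of that check was widened after its first draw had failed it, so adjusted p-values near the threshold may be too small. The members and lists were chosen with earlier results of these data known. The genes named are all members, all other tested integrin subunits, the 2 genes with the smallest p per list, 11 genes known to act with the members, 3 genes with a pattern like that of Itgae, and the highest gene per cell type list. Any other gene was chosen after its values were seen.

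Same-numbered libraries of the 2 groups deviated together from their group means (correlations over 15591 genes of 0.47, 0.33 and 0.30). Libraries with different numbers had correlations from -0.35 to 0.12. By a criterion of 0.1 the replicate numbers in the labels were taken to pair the libraries. Hypoxia replicate 2 with normoxia replicate 3 (0.12) also passed this criterion. The main fit and the permutation test did not use the pairing, and only the replicate block did. Within a group, libraries differed well beyond sampling noise (chi-square per gene, on average, of 12.4 to 59.1). Alternatives were other scalings, DESeq2 1.42.0, limma-voom (limma 3.58.1), other filters (the stricter filter required 1 CPM in 3 libraries), the replicate block and leaving out libraries.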

Additional observations from a re-analysis of the deposited data

How the results depend on the processing

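The 5 called members kept their direction and their call in all 14 alternative settings, with log2 fold changes of 4.36 to 4.71 for Itgae, 0.68 to 0.79 for Itgb7, 0.85 to 1.19 for Itgam, 0.81 to 0.95 for Itgax and -0.56 to -0.42 for Itgal. Itga1 passed in 4 of the 14, and Itga2, Itga4, Itgb1 and Itgb2 in 0. With the replicate block 2988 of all genes were higher and 3120 lower, and of the lists 4 ligand genes were higher, 3 activation genes higher and 6 lower, 7 TGF-beta genes higher and 2 lower, and 3 residency genes lower. With library size alone 998 of all genes, 1 other integrin and 0 activation genes were lower, and 5 ligand and 2 activation genes higher. With the stricter filter 1 other integrin was lower. DESeq2 gave 4 ligand genes higher, and 2 activation and 2 TGF-beta genes lower. Without a filter 4 ligand genes were higher, and 0 activation, 2 TGF-beta and 2 residency genes lower. Without both replicate 1 libraries 4 ligand and 3 activation genes were higher. Leaving out 1 library gave 1146 to 1980 of all genes higher and 804 to 1636 lower, 0 to 2 other integrins lower, 1 to 4 ligand genes higher, 0 to 2 activation genes lower, 3 to 4 adhesion genes higher and 1 to 3 lower, 1 to 2 TGF-beta genes lower and 1 to 2 residency genes lower. With the longest transcript, and with no division by length, the share of Itgae differed by 33.3 and 17.0 percentage points, that of Itgal by -23.1 and -22.1, of Itgam by 4.47 and 4.74, of Itga1 by 2.67 and 2.75 and of Itga2 by -0.80 and -0.82, and that of Itga4 by -1.41 with the longest transcript. The median log2 fold change of the TGF-beta genes was 0.29 with library size alone, 0.090 without both replicate 1 libraries and 0.11 to 0.24 with 1 library left out, and that of the adhesion genes 0.018 to 0.16 with 1 library left out. That of the other integrins was -0.11 to 0.014 with 1 library left out, 0.017 with library size alone and 0.014 with the stricter filter, and that of the activation genes 0.057 with library size alone, so the sign of these medians was not stable. That of the 10 members was 0.13 to 0.21 with 1 library left out and 0.25 with library size alone. Signs turned for genes that were not called: Itga4 (0.013) and Itga6 (0.080) with library size alone, Itga6 with the stricter filter (0.014), and, with 1 library left out, Itga6 (-0.072 to 0.059), Itga9 (-0.48 to 0.033) and Tgfbr2 (-0.053 to 0.092). The cause was not tested. Depth limits the 5 untested integrins and the low cell type markers, where 1 count weighs much.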

Other observations

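Other genes next to the members were measured as well. Ncbp3, which encodes a cap-binding protein and is the other neighbour of Itgae, stood at 81.9, 89.1 and 94.3 CPM in hypoxia and at 63.6, 67.6 and 70.8 CPM in normoxia (log2 fold change 0.39, SE 0.08, edgeR adjusted p = 0.0063). Ube2e3, a ubiquitin-conjugating enzyme gene next to Itga4, averaged 35.3 ± 2.51 CPM in hypoxia against 50.1 ± 4.04 CPM in normoxia and fell (-0.51, SE 0.09, edgeR adjusted p = 0.0029). Nrp1, which encodes the coreceptor neuropilin-1 and lies next to Itgb1, stood at 2.25 ± 0.548 CPM and 1.35 ± 0.175 CPM and rose (0.73, SE 0.21, edgeR adjusted p = 0.035). Gm49368, a gene model that overlaps Itgam on the same strand and adjoins Itgax, stood at 0.736, 0.398 and 0.569 CPM in hypoxia and at 0.171, 0.235 and 0.219 CPM in normoxia and rose (1.43, SE 0.33, edgeR adjusted p = 0.012). How counts were divided between it and Itgam was not tested. The neighbours of Itgb7, Itgal and Itgb2 were not called. These genes were named after their values were seen.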
